A study of Mus musculus with 4 samples.

Results

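The connexins are the genes of gap junction channels, and 8 of them were followed here in whole mouse ovary: Gja1, Gja4, Gja5, Gja6, Gjb2, Gjb5, Gjc1 and Gjd3. They were chosen by name, as the rows of the deposited expression table whose symbol equals a listed gene, and each matched 1 of the table's 21958 rows. The table holds 20 connexin rows in all, so 12 further connexins stand outside the chosen set. RNA was sequenced from ovaries of mice that carry an oxytocin receptor transgene (++Oxtr in the titles, genotype tg, here OxtrTg, replicates 3 and 4) and from wild-type animals (genotype wt, here WT, replicates 5 and 6), with 2 libraries each. All females were in diestrus, and the stated question is how the receptor acts on follicle development. The promoter that drives the transgene, the strain, the age and the number of animals behind a library remain not given in the labels.

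A connexin protein crosses the membrane several times, connexins join into a half-channel, and half-channels of neighbouring cells dock to form a pore for ions and small molecules. In the ovary Gja1 (protein Cx43) is best known for coupling granulosa cells to each other, and Gja4 (Cx37) for coupling the oocyte to the granulosa cells around it. Through these channels the follicle feeds the oocyte and, by passing cyclic GMP, holds it in meiotic arrest until ovulation. Gjc1 (Cx45) is found in granulosa cells and vessel walls, Gja5 (Cx40) in arterial endothelium, Gjb2 (Cx26) in many epithelia, Gjb5 (Cx31.1) in stratified epithelia, Gjd3 (Cx30.2) in the conduction system of the mouse heart, and Gja6 (Cx33) in Sertoli cells of the rodent testis.

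The family is held together by an extracellular loop whose cysteines keep a fixed spacing and serve the docking of half-channels. The coding sequences below show that loop in each of the 8 genes, from GENCODE release M21 (GRCm38 build, coding strand, 5′ to 3′), because it is the feature the genes share whatever their level. Capitals mark the cysteine codons.
Gja1: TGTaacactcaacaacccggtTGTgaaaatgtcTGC
Gja6: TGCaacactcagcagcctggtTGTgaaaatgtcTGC
Gja4: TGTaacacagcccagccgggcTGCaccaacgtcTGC
Gja5: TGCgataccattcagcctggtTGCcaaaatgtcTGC
Gjc1: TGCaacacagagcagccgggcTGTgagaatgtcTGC
Gjb2: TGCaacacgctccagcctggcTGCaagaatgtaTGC
Gjb5: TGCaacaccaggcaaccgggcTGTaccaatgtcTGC
Gjd3: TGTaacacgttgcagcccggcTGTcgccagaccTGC
The spacing of these 3 codons, 6 codons and then 3 codons between them, was present in 19 of the 20 connexins of the table and in 2.10% of all 21665 coding genes searched. Gja1 and Gja6 were the most alike of the 8, with 32 of the 36 loop bases shared and 76.9% identity over their aligned coding bases. The longest identical stretch between coding sequences of the 8 was 26 bases (Gja1 with Gja4), and between Gja1 and Gja6 it was 24 bases. The read length and the handling of reads that match several genes remain not given in the labels.

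The libraries held 15229810 to 16517764 counts each. Where a gene has 0 counts, its level may still reach 3 counts, or 0.182 to 0.197 CPM (counts scaled to library size). Oxtr itself, the gene of the transgene, reached 109 and 161 CPM with the transgene, against 29.2 and 55.4 CPM without it, so both OxtrTg libraries were higher, as labelled. Markers of the labelled tissue were present, with summed levels of 2484 to 2933 CPM for 8 granulosa cell markers (Inha, Nr5a2, Fst and others) and of 392 to 782 CPM for 9 oocyte markers. The RNA extraction protocol of the labels names white adipose tissue, and 8 adipocyte markers summed to 1405 and 2006 CPM in OxtrTg and to 178 and 190 CPM in WT. In addition, 6 oviduct epithelium markers summed to 44.2 CPM in OxtrTg replicate 3 against 939 to 2970 CPM in the other libraries, and 8 luteal markers to 9691 CPM in WT replicate 6 against 2256 to 2496 CPM. In whole tissue, fewer cells of a type and less RNA per cell cannot be told apart.

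Gja1 was by far the most abundant connexin of the ovary. Per gene length (FPKM, counts per gene length and library size, as deposited) it stood at 206 in OxtrTg replicate 3, 191 in OxtrTg replicate 4, 167 in WT replicate 5 and 208 in WT replicate 6. That was 83.6% to 89.1% of the summed FPKM of all 20 connexins, and it placed Gja1 between rank 124 and rank 159 of all rows. Gja4 came next, at 18.1 and 12.9 FPKM in OxtrTg and 16.5 and 12.6 in WT, 10.1 to 16.6 times below Gja1 in the same library. Gjc1 followed with 8.31 and 8.10 against 7.50 and 5.81 FPKM. This order of Gja1, Gja4 and Gjc1 was the same in all 4 libraries, and the ranges of the 3 genes did not overlap.

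Below these, the order of the other 5 chosen genes was no longer fixed. Gja5 lay between 0.590 and 1.25 FPKM and Gjb5 between 0.253 and 1.44, and either could be the higher of the pair. In WT replicate 6 Gjd3 also lay above Gjb5. Gjd3 (0.156 to 0.471 FPKM), Gjb2 (0.201 to 0.488) and Gja6 (0.0300 to 0.195) also overlapped in range and rest on 1 to 18 counts per library. By class, the alpha connexins (Gja genes) held 91.9% to 94.98% of the connexin FPKM, the gamma connexins (Gjc genes) 4.43% to 6.48%, the beta connexins (Gjb genes) 0.435% to 1.55% and the delta connexins (Gjd genes) 0.0698% to 0.193%. The 8 chosen genes together made up 96.4% to 97.8%.

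**Figure D1:**
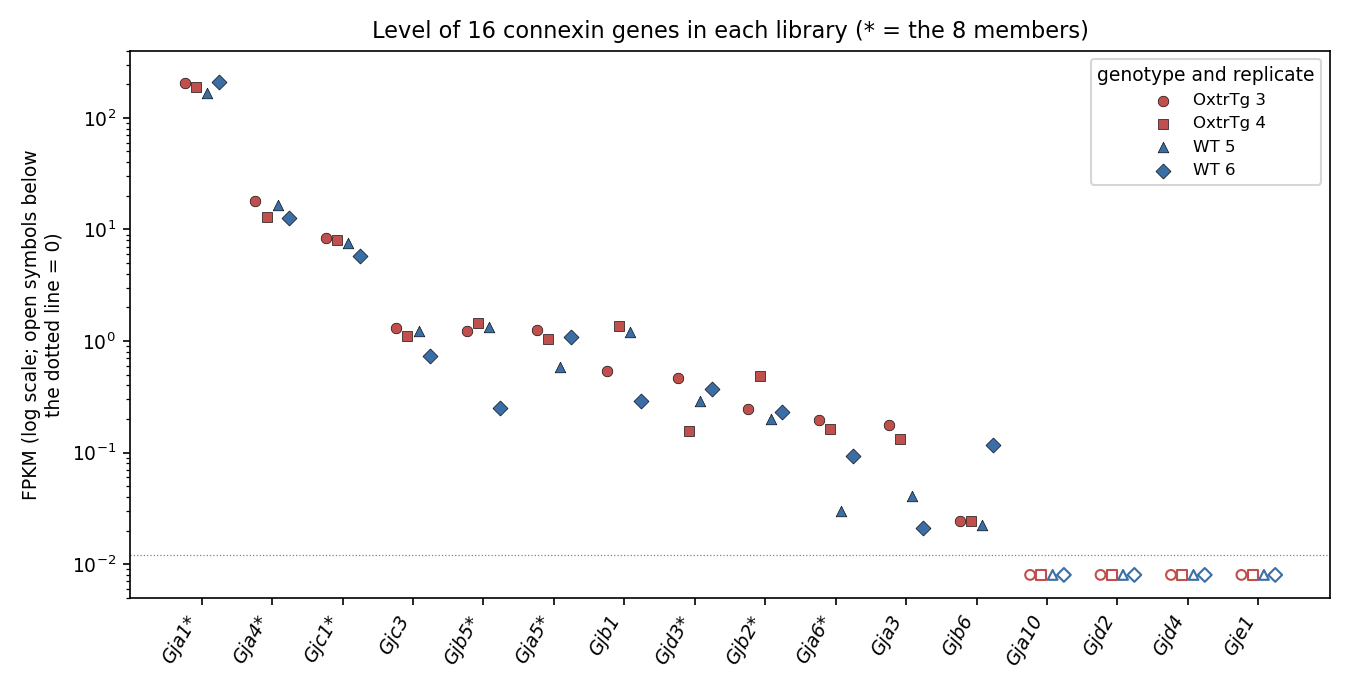
FPKM (log axis) of 16 connexin genes in each library, ordered by their mean, with 1 symbol per library and the 8 chosen genes starred; open symbols below the dotted line are values of 0. Gja1 lies at 167 to 208 FPKM, Gja4 and Gjc1 come next in every library, and Gja10, Gjd2, Gjd4 and Gje1 are at 0 throughout.

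Between genotypes no connexin passed the test. Of the 8 genes, 5 passed the filter on low counts (Gja1, Gja4, Gja5, Gjb5 and Gjc1), and 0 of these had an adjusted p under 0.05 in edgeR's quasi-likelihood test, where 0% of the 15311 genes tested were called (0 higher and 0 lower in OxtrTg). None of the 5 had an unadjusted p under 0.05 either, against 2.57% of all genes. DESeq2, which called 0.451% of all genes, and limma-voom, which called 0 genes, also called 0 of the 5. The fitted log2 differences, OxtrTg minus WT, ran from 0.09 to 0.76 with a median of 0.32, beside a median over all genes tested that rounds to 0, and the direction for Gja1 and Gja4 turned when single libraries were left out. Gja6, Gjb2 and Gjd3 had too few counts to enter the test. An exact permutation test of 2 libraries against 2 cannot go below p = 0.333 (two-sided).

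**Figure D2:**
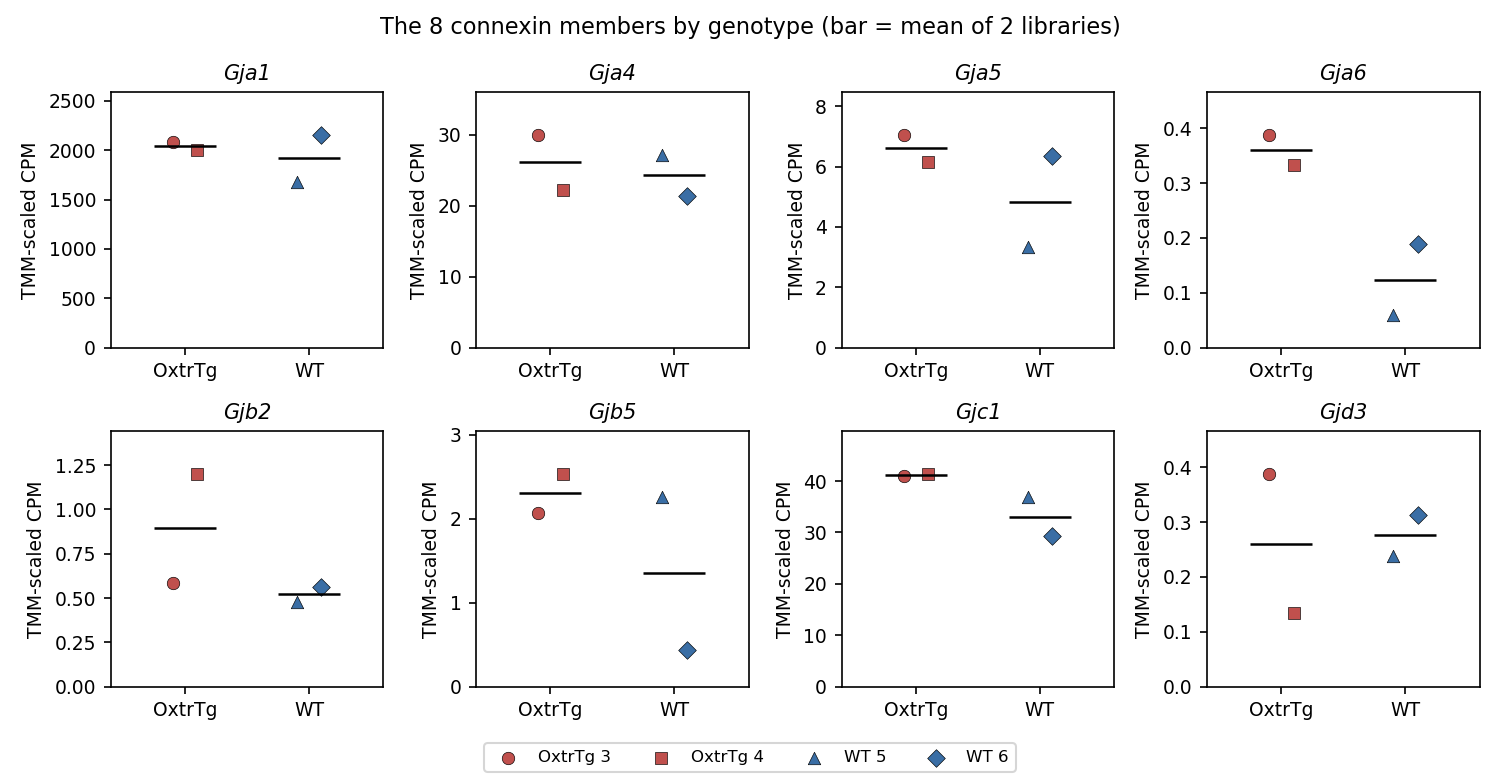
TMM-scaled CPM of each of the 8 connexins by genotype, with 1 symbol per library and a bar at the mean of 2 libraries; the vertical axis starts at 0 and differs between panels. The OxtrTg and WT libraries interleave for Gja1, Gja4, Gja5, Gjb5 and Gjd3, while Gjc1, Gjb2 and Gja6 lie higher in both OxtrTg libraries. Of all genes tested, 14.5% lie higher in both OxtrTg libraries.

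Gja1 (ENSMUSG00000050953) varied little between the genotypes. With library sizes scaled by TMM, it stood at 2084 CPM in OxtrTg replicate 3, 2006 in OxtrTg replicate 4, 1677 in WT replicate 5 and 2158 in WT replicate 6. WT replicate 5 was the lowest and WT replicate 6 the highest, so that both OxtrTg libraries fell between the WT libraries. The means were 2045 ± 55.6 against 1918 ± 340.3 CPM (SD, n = 2 each), and the log2 difference was 0.09 ± 0.20 (SE, 95% interval -0.46 to 0.65, adjusted p = 1 in edgeR's quasi-likelihood test). The interval thus leaves room for a level in OxtrTg from 0.727-fold to 1.56-fold that of WT. Granulosa cell markers, with 4 of 8 members positive and a median log2 difference of 0.03, summed to 2535 and 2729 CPM in OxtrTg, against 2484 and 2933 CPM in WT. Like Gja1, that sum was lowest in WT replicate 5 and highest in WT replicate 6. Most of the single markers did not share both of these ends with Gja1. Inha and Fst were highest in WT replicate 6 but lowest in OxtrTg replicate 3. Nr5a2 was lowest in WT replicate 5 but highest in OxtrTg replicate 3. The part of granulosa cell content in the level of Gja1 was not tested. In the deposited table the gene lies on chromosome 10, plus strand, from 56253426 to 56278609.

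Gja4 (ENSMUSG00000050234), best known in the ovary for coupling the oocyte to granulosa cells, differed more within a genotype than between them. Whole ovary does not show which cells its RNA came from. It had 464 and 334 counts in OxtrTg replicates 3 and 4 and 458 and 341 counts in WT replicates 5 and 6, or 30.0, 22.3, 27.2 and 21.4 CPM. In each genotype 1 library was high and 1 low, and the groups overlapped. The log2 difference was 0.11 ± 0.25 (SE, 95% interval -0.56 to 0.77, adjusted p = 1 in edgeR), and it turned to -0.12 without OxtrTg replicate 3 and to -0.06 without WT replicate 6. Oocyte markers such as Padi6, Gdf9 and Zp2 also stood highest in OxtrTg replicate 3, where the 9 markers summed to 782 CPM, against 392 in OxtrTg replicate 4, 559 in WT replicate 5 and 533 in WT replicate 6. None of the 9 was called (8 positive, median log2 difference 0.15), and the part of oocyte content in the level of Gja4 was not tested. Gja4 lies on chromosome 4, minus strand, from 127205214 to 127207832.

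Gjc1 (ENSMUSG00000034520), the connexin of granulosa cells and vessel walls, was the only 1 of the 5 tested genes whose libraries were separated by genotype. It was at 41.0 CPM in OxtrTg replicate 3, 41.5 in OxtrTg replicate 4, 36.9 in WT replicate 5 and 29.4 in WT replicate 6. Both OxtrTg libraries were close together and above both WT libraries, as was so for 14.5% of all genes tested, while 11.7% were lower in both. The means were 41.2 ± 0.334 against 33.1 ± 5.31 CPM (SD, n = 2 each), a ratio of 1.245. The log2 difference was 0.32 ± 0.17 (SE, 95% interval -0.14 to 0.77), with adjusted p = 1 in edgeR's quasi-likelihood test (unadjusted p = 0.127). It kept its sign in every fit that left out 1 library (0.16 to 0.48), and was 0.16 without WT replicate 6. It lies on chromosome 11, minus strand, from 102690405 to 102710526.

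Gja5 (ENSMUSG00000057123), the arterial connexin, was set apart by 1 library. It had 109 and 92 counts in OxtrTg replicates 3 and 4, 56 in WT replicate 5 and 101 in WT replicate 6, which is 7.06, 6.14, 3.33 and 6.33 CPM. WT replicate 5 alone was low, and WT replicate 6 lay between the OxtrTg libraries. The exact Poisson interval of its 56 counts (95%, 42.3 to 72.7, counting error only) ended below those of the other 3 libraries, of which the lowest began at 74.2. The log2 difference of 0.45 ± 0.44 (SE, 95% interval -0.73 to 1.63, adjusted p = 1 in edgeR) fell to 0.05 without WT replicate 5 and was 0.99 without WT replicate 6.

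For vessels as a whole, of 8 endothelial markers 7 were higher in both OxtrTg libraries, as were 14.5% of all genes tested. The 8 markers summed to 587 and 556 CPM against 441 and 452 CPM in WT, with a median log2 difference of 0.28 and 0 called. Of 6 arterial markers (Efnb2, Sox17, Unc5b and others) 2 were higher in both and 0 were called (median -0.16). Their sum was highest in WT replicate 5, at 209 CPM against 123 to 177 CPM in the other libraries, which is the library where Gja5 was lowest. Sox17, the highest of that list, is also expressed in epithelia of the reproductive tract. The row of Gja5 spans chromosome 3 from 96812009 to 96984732 on the plus strand and overlaps other rows on the minus strand, among them Gpr89 by 654 bases. Without the strand setting of the counting, reads cannot be told apart where rows overlap.

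The genes whose levels ran most like Gja5 over the 4 libraries, among 14371 tested genes with a mean of at least 1 CPM, predicted genes left out, were Slc16a9 (a member of the monocarboxylate transporter family), Aifm2 (an oxidoreductase) and Ccrl2 (a chemokine-like receptor). Their root mean square difference from Gja5, on log2 CPM centred on the mean of the 4 libraries, was 0.0603, 0.0615 and 0.0693. With 4 libraries and that many genes, close matches are a description only.

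Gjb5 (ENSMUSG00000042357), the connexin of stratified epithelia, had the widest range of the 5 tested genes. It had 32, 38 and 38 counts in OxtrTg replicates 3 and 4 and WT replicate 5, and 7 counts in WT replicate 6, or 2.07, 2.54, 2.26 and 0.439 CPM. WT replicate 6 was thus far below the other libraries, and WT replicate 5 lay between the OxtrTg libraries. The 7 counts had an exact Poisson interval of 2.81 to 14.4 and the 32 counts one of 21.9 to 45.2 (95%, counting error only). On log2 CPM the gene spanned 2.45 between its lowest and highest library, more than 93.4% of all genes tested. The log2 difference was 0.76 ± 0.85 (SE, 95% interval -1.54 to 3.07, adjusted p = 1 in edgeR). It rested on WT replicate 6, since it was 0.03 without that library and 2.36 without WT replicate 5 (unadjusted p = 0.0498, adjusted p = 0.9995 in edgeR).

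The library with little Gjb5 was the one with the highest luteal sum and the lowest sum of surface mesothelium markers. The 5 mesothelium markers, among them Upk3b, Krt19 and Msln, summed to 471 and 517 CPM in OxtrTg replicates 3 and 4, 371 in WT replicate 5 and 195 in WT replicate 6. Of them 4 were higher in both OxtrTg libraries, against 14.5% of all genes tested, and 0 were called (median log2 difference 0.86). The markers of stratified epithelium summed to 9.61 to 10.9 CPM in every library, with Krt6a at 0 in all 4 and Krt5 at 0 in 3. Most of that sum was Trp63 (7.48 to 10.1 CPM), a transcription factor of basal epithelium that oocytes also express. Krt14, a basal keratin, had 10 and 8 counts in OxtrTg and 11 and 3 in WT, lowest in WT replicate 6 like Gjb5. Trp63 and Dsg3, of the same list, were not lowest there. Trp63 was at 9.72 CPM in WT replicate 6, and Dsg3 had 0 and 24 counts in OxtrTg and 7 and 13 in WT. Only 3 of those 5 markers could be tested, with 0 called and a median of 0.37. Of the 6 oviduct markers 0 were called (median -0.57). Their sum was 44.2 CPM in OxtrTg replicate 3, where Gjb5 had 32 counts, and 939 to 2970 CPM elsewhere. Of 7 luteal markers tested 0 were called and 0 were positive (median -1.65). The part of these cell types in the level of Gjb5 was not tested.

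By the same measure of likeness, Insrr (a receptor of the insulin receptor family) was closest to Gjb5, with a root mean square difference of 0.107 on centred log2 CPM. Lrp2 (the endocytic receptor megalin) at 0.130 and Ism1 (a secreted protein) at 0.154 came next. Lrp2, picked for this likeness, had 5.02 CPM in WT replicate 6 and 18.8 to 25.9 CPM in the other libraries. As for Gja5, such matches are a description only. Gjb5 lies on chromosome 4, minus strand, from 127248602 to 127251974.

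The remaining chosen genes were near the limit of detection. Gjb2 (ENSMUSG00000046352), an epithelial connexin on chromosome 14, minus strand, from 57336057 to 57342159, had 9 and 18 counts in OxtrTg and 8 and 9 in WT. Over both libraries of a group this gave 27 against 17 counts, a ratio of 1.70 with an exact conditional binomial interval of 0.891 to 3.32 (95%, counting error only). In CPM the groups did not overlap, but the nearest libraries were at 0.583 and 0.564 with 9 counts each.

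Gja6 (ENSMUSG00000055691), the testis connexin, had 6 and 5 counts in OxtrTg and 1 and 3 in WT, a ratio of 2.94 with an interval of 0.870 to 12.6. Its row, on the X chromosome, minus strand, from 159685112 to 159690048, overlaps another row on the same strand, so its counts are uncertain. Gjd3 (ENSMUSG00000047197), the cardiac connexin, had 6 and 2 counts in OxtrTg and 4 and 5 in WT, a ratio of 0.949 with an interval of 0.319 to 2.77, on chromosome 11, minus strand, from 98873006 to 98873842. At this depth no difference was detectable for any of these 3 genes.

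Of the 12 other connexins, 3 could be tested and 0 were called (median log2 difference 0.38, 0 with an unadjusted p under 0.05). Gjc3, a glial connexin, was at 5.63 and 4.94 against 5.23 and 3.26 CPM, with overlapping groups. Gjb1, the liver and Schwann cell connexin, was at 0.906 and 2.40 against 2.02 and 0.502 CPM, high in OxtrTg replicate 4 and WT replicate 5 and low in the other pair.

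Krt19, a keratin of simple epithelia, was also highest in OxtrTg replicate 4 and WT replicate 5, at 193 and 149 CPM against 80.6 in OxtrTg replicate 3 and 58.0 in WT replicate 6. This side-by-side reading was chosen after the values were seen. Krt19 belongs to the 5 surface mesothelium markers, and the other 4 did not share this order. Each of those 4 was higher in both OxtrTg libraries than in either WT library. Upk3b, for example, fell from 231 CPM in OxtrTg replicate 3 to 165 in OxtrTg replicate 4, 114 in WT replicate 5 and 63.0 in WT replicate 6. Gja3, a lens connexin, had 8 and 6 counts in OxtrTg and 2 and 1 in WT, a ratio of 4.98 (exact interval 1.39 to 27.0, counting error only). Gjb6, an inner ear connexin, had 1 and 1 counts in OxtrTg and 1 and 5 in WT. Gja10, Gjd2, Gjd4 and Gje1 had 0 counts in every library.

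Pannexins form channels of similar shape that open to the outside of the cell. Of 3 pannexins 2 were tested and 0 called (median log2 difference 0.15). Panx1, an ATP release channel, had 26.3 and 21.1 CPM with the transgene, against 26.9 and 30.4 CPM in WT, lower in both OxtrTg libraries, with a log2 difference of -0.27 ± 0.20 (SE, adjusted p = 1 in edgeR). Panx2 was at 1.75 and 0.801 against 0.951 and 0.753 CPM, and Panx3 had 0, 0, 0 and 6 counts.

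Of 14 genes whose proteins bind connexins or act on their trafficking and phosphorylation, all 14 were tested and 0 were called in edgeR (5 positive, median log2 difference -0.06). Cav1 (caveolin, a membrane scaffold that binds Cx43) was the exception in size: it had 375 and 403 CPM with the transgene, against 242 and 220 CPM in WT, without overlap. Its log2 difference was 0.75 ± 0.12 (SE, 95% interval 0.44 to 1.07, unadjusted p = 0.00234, adjusted p = 0.832 in edgeR). DESeq2 called it (adjusted p = 2.05e-05), and with single libraries left out it did so only without WT replicate 5 (adjusted p = 0.0226), with 0.0945 to 0.385 in the other 3 fits. Adipocytes and endothelial cells are rich in caveolin. All 8 adipocyte markers were also higher in both OxtrTg libraries, against 14.5% of all genes tested. Their median log2 difference was 3.41, with 0 called in edgeR and 8 in DESeq2. The endothelial, mesothelium and macrophage sums were higher in both OxtrTg libraries too. Within OxtrTg, Cav1 was higher in replicate 4. The adipocyte sum (2006 and 1405 CPM in replicates 3 and 4) and the endothelial sum (587 and 556 CPM) were higher in replicate 3. So was the macrophage sum (362 and 345 CPM). The mesothelium sum (471 and 517 CPM) was higher in replicate 4, like Cav1. The same held for the sum of smooth muscle and pericyte markers (1915 and 4277 CPM). The part of these cell types in the level of Cav1 was not tested.

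The fitted differences of the other partners were smaller than that of Cav1. Of all 14 partners, 3 were higher and 3 lower in both OxtrTg libraries, against 14.5% and 11.7% of all genes tested. Mapk3, a kinase that phosphorylates Cx43, had a log2 difference of 0.15 ± 0.10 (SE, 95% interval -0.11 to 0.41). Cdh2, the adhesion molecule N-cadherin, had -0.30 ± 0.20, with WT replicate 6 alone high at 60.5 CPM against 41.5 to 42.5 in the others. Src, a tyrosine kinase that closes Cx43 channels, had -0.09 ± 0.10, each with an adjusted p of 1 in edgeR. These RNA levels do not measure phosphorylation, docking or coupling between cells.

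**Figure D3:**
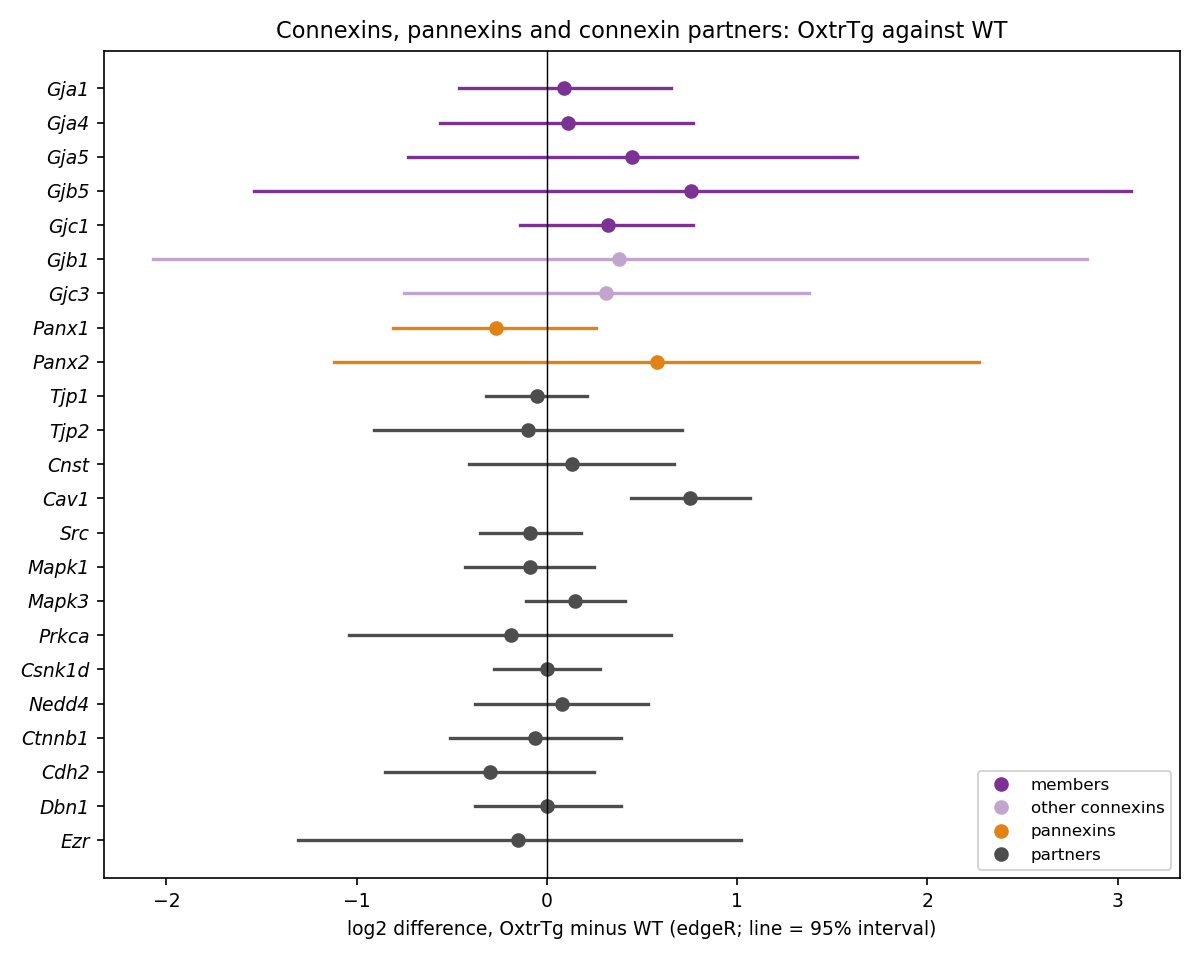
Log2 difference, OxtrTg minus WT, of 7 tested connexins and of each tested pannexin and connexin partner in edgeR, with its 95% interval as a line. Every interval shown but that of Cav1 (0.44 to 1.07) crosses 0, and those of Gjb5 and Gjb1 are the widest.

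On log2 CPM Gja1 spanned 0.36 between its lowest and highest library, Gja4 0.49 and Gjc1 0.50, near the median of 0.45 over all genes tested. Gja5 spanned 1.08, and a span over 1 was seen in 24.05% of genes. Smooth muscle and pericyte markers, cells that also hold Gja1 and Gjc1, summed to 1915 CPM in OxtrTg replicate 3 and to 2478 to 4277 CPM elsewhere (3 of 7 positive, median log2 difference -0.02, 0 called). The part of these cells in the levels of Gja1 and Gjc1 was not tested. Macrophage markers summed to 362 and 345 CPM against 268 and 185 CPM (median 0.57, 0 called). Of these 5 markers 4 were higher in both OxtrTg libraries, against 14.5% of all genes tested.

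**Figure D4:**
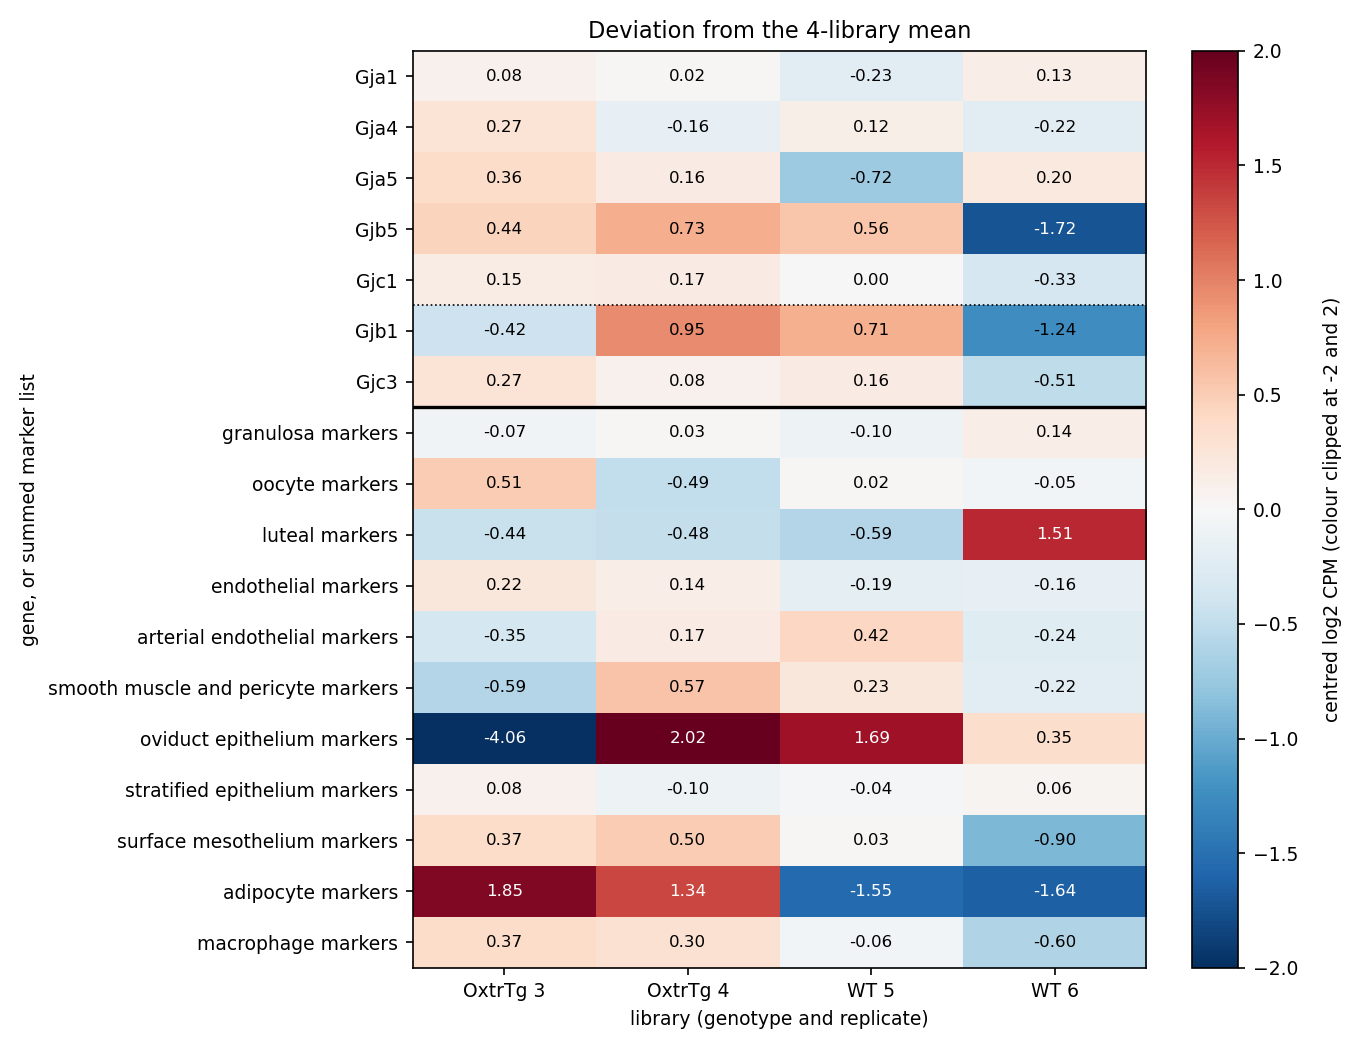
Deviation of log2 CPM from the 4-library mean for the 5 tested connexins, 2 other tested connexins (Gjb1 and Gjc3) and the summed level of each marker list, by library; colour is clipped at -2 and 2 and the printed values are not. The abundant connexins stay within -0.33 and 0.27, while Gjb5 falls to -1.72 in WT replicate 6 and the oviduct sum to -4.06 in OxtrTg replicate 3.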

How the data were processed

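RNA was sequenced in 4 ovary libraries. Per the labels' protocols, libraries were made from total RNA with the NEBNext Ultra II RNA kit. The deposited table gives a raw read count per gene and library, per the file headers. It also gives FPKM, per the file headers, which equals the count scaled to the deposited gene length and the library total. The submitters' processing notes name mm10. Of 21901 identifiers found in GENCODE M21, 2.58% had the deposited start and end, so positions are those of the table, whose build it does not name. Aligner, counter and strand setting: not given in the sources used here.

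Counts were fitted with edgeR 4.0.16 (R 4.3.3; TMM scaling, filterByExpr with a minimum count of 10, quasi-likelihood test), which kept 15311 genes. Adjustment of p-values was by Benjamini-Hochberg over all of them, with a threshold of 0.05. The SE is the log2 difference over the root of F. The 4 libraries left 2 residual degrees of freedom. Replicate numbers come from the titles. The labels do not say whether libraries are separate animals, so p-values measure the spread between these libraries. Alternatives were DESeq2 1.42.0, limma-voom (limma 3.58.1), other scalings, other filters, limma on log2(FPKM + 1) and on log2(FPKM + 0.1), a threshold of 0.1, and each library left out in turn. The tests were checked on simulated counts. All 8 members were named, as were other connexins with any count (some are not reported here), up to 4 pannexins and 4 partners by p, up to 3 markers a list by level, and the 3 nearest genes of members spanning over 1 on log2 CPM. Krt5, Krt6a and Ezr, named beyond this rule, were chosen after their values were seen. Members and lists were chosen with earlier results of these data known.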

Additional observations from a re-analysis of the deposited data

How the results depend on the processing

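For the 8 connexins the count of calls was 0 under every alternative run, including each library left out in turn (0 to 0 in edgeR, 0 to 0 in DESeq2). The 5 tested genes kept their direction and stayed above the threshold in 82 of 88 alternative fits. The other 6 reversed, all by leaving out a library. Gja1 was -0.084 without WT replicate 5 (-0.086 in DESeq2) and otherwise up to 0.29. Gja4 was -0.12 without OxtrTg replicate 3 and -0.058 without WT replicate 6 (-0.13 and -0.060 in DESeq2), and up to 0.30 with another library left out. Of 157 fits for other named genes, 6 reversed: Gjb1 was -0.48 without OxtrTg replicate 4 and -0.29 without WT replicate 6, and -0.48 and -0.29 in DESeq2 (range -0.48 to 1.70 in edgeR with a library left out), while Panx2 was -0.089 without OxtrTg replicate 3 and -0.096 in DESeq2 (range -0.089 to 1.03 in edgeR with a library left out). The cause was not tested. Over all genes DESeq2 called 69 (66 higher, 3 lower) where edgeR called 0, and 55, 478, 159 and 46 without OxtrTg replicate 3, OxtrTg replicate 4, WT replicate 5 and WT replicate 6; edgeR called 0 to 65, 65 without OxtrTg replicate 4. Among other connexins, pannexins and partners DESeq2 called 1 (Cav1), and 0 to 1 with libraries left out. That 1 was Ezr, lower, without OxtrTg replicate 4, and Cav1 without WT replicate 5. DESeq2 without single libraries, and the log2 differences of single genes outside the 8 under the alternatives, were added after the data were seen. Where a fit leaves 1 library in a group, that library is assumed to vary like the others. Gja5 fell below the mean FPKM filter and has no value there. No paired analysis was possible because the genotypes share no replicate number. Depth limits Gja6, Gjb2 and Gjd3.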
